A study of Mus musculus with 39 samples.

Results

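ER sites without GR, retained with Afos, are stretches of mouse chromatin that the estrogen receptor (ER) occupied with estradiol in 7438 cells and again in 7438 cells carrying Afos, and at which no glucocorticoid receptor (GR) was called in 7438 cells given dexamethasone. A member is a site of the 7438 ER list with estradiol that overlapped, by at least 1 bp, a site of the 7438 ER list named Both and a site of at least 1 of the 2 Afos ER lists with estradiol, and that overlapped no site of the 7438 GR lists named Dex and Both. There were 2662 members among the 7136 ER sites of 7438 cells with estradiol, or 37.3%, and the 24 lists used here held 110608 sites in all. Members were chosen by the called sites of these 6 lists, that is, by measured ER and GR binding, so presence and strength in them describe the members and were not tested.

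ChIP-seq, in which chromatin bound by a protein is pulled down with an antibody and sequenced, was performed for GR and ER in 7438 mouse mammary cells and in 7438 Afos cells. Both lines expressed GFP-GR and Cherry-ER, fusions of each receptor to a fluorescent protein, from promoters that were switched on by removing tetracycline. Cells of both lines were given 100 nM dexamethasone plus 100 nM estradiol (Dex+E2), 100 nM estradiol (E2), 100 nM dexamethasone (Dex) for 30 min, or no hormone. Afos cells had 2 replicate lists for each receptor and treatment, and 7438 cells had 1. The 7438 lists named Both were filed under samples labelled untreated, and those named unt under samples labelled Dex+E2, for ER and for GR. Treatment in 7438 was read from the list names, with Both taken as both hormones; by the sample labels only 9 sites met the same conditions. The labels do not say whether the replicates came from separate cultures, so p-values measure the spread between lists, which may be technical. Each test also pooled lists of several treatments, so that spread includes differences between treatments and is not replicate spread alone. Read depth is unknown, since only called sites were listed, and lists of sites do not allow the cell type to be checked against marker genes.

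ER is a transcription factor activated by estradiol that binds DNA at estrogen response elements and, in part, through other DNA-bound factors. GR is the related receptor activated by glucocorticoids such as dexamethasone, and it binds its own response elements, often in chromatin already opened by other factors. The labels do not explain Afos. A dominant-negative protein of the name A-Fos is known to pair with Jun proteins and to block DNA binding by AP-1, the Fos and Jun family of factors. AP-1 is known to keep chromatin accessible for steroid receptors in mouse mammary cells.

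Of the 7136 ER sites with E2 in 7438 cells, 6299, or 88.3%, were also in the list named Both, and 4001 of these overlapped no GR site. GR in the list named Both was at 32.6% of all ER E2 sites, and GR in the Dex list at 16.7%. Members were 66.5% of those 4001 sites (exact binomial 95% interval 65.0 to 68.0%), and the other 1339 sites, in neither Afos ER E2 list, are called Afos-absent below. Stable ER sites with GR that were also found in Afos cells numbered 1356, or 59.0% of their kind (57.0 to 61.0%), and are called sites with GR below. All intervals cover counting error only, and neighbouring sites are not independent of each other. At the limits of the rule, the smallest overlap of a member with a site of the list named Both was 2 bp, 29 members overlapped by under 75 bp, and 40 other ER E2 sites missed such an overlap by at most 150 bp. Of the Afos-absent sites, 41 had an Afos ER E2 site within 500 bp.

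Most members were found in both Afos ER E2 replicates. Replicate 1 held 2562 members (96.2%) and replicate 2 held 2215 (83.2%), against 57.9% and 51.5% of all ER E2 sites in the same lists and 60.5% in at least 1 of them. The rule required each member to be in at least 1 of these lists. Shares above those of all ER E2 sites thus follow from the rule. Both lists held 2115 members (79.5%, against 48.9% of all ER E2 sites). Replicate 1 alone held 447 (16.8%, against 9.01%) and replicate 2 alone 100 (3.76%, against 2.54%). Of the 4315 ER E2 sites in at least 1 of these lists, 3491 were in both, so this was not particular to members. The members took up 41.6% of the sites of replicate 1 and 46.3% of those of replicate 2. Where the Afos and 7438 sites overlapped, the median distance between their centres was 21.5 bp in replicate 1 and 22.5 bp in replicate 2. Over all ER E2 sites it was 21.5 bp in replicate 1 and 22 bp in replicate 2. Afos sites at members had a median width of 605.5 bp in replicate 1 and 582 bp in replicate 2, while every 7438 site was 150 bp wide.

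Members were ER sites of middling strength. Their highest tag density, the authors' measure of a site's height, ran from 10.0 to 127 in the 7438 ER E2 list, with a median of 18.4, against 13.9 for Afos-absent sites, 39.2 for sites with GR and 17.1 for all ER E2 sites. As a percentile of that list the median was 54.9 for members, 33.7 for Afos-absent sites and 86.5 for sites with GR. Members in both Afos ER E2 lists had a median percentile of 59.7, those in replicate 1 alone 36.9 and those in replicate 2 alone 49.5. These ranks belong to a list that the rule used and are a description.

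**Figure D1:**
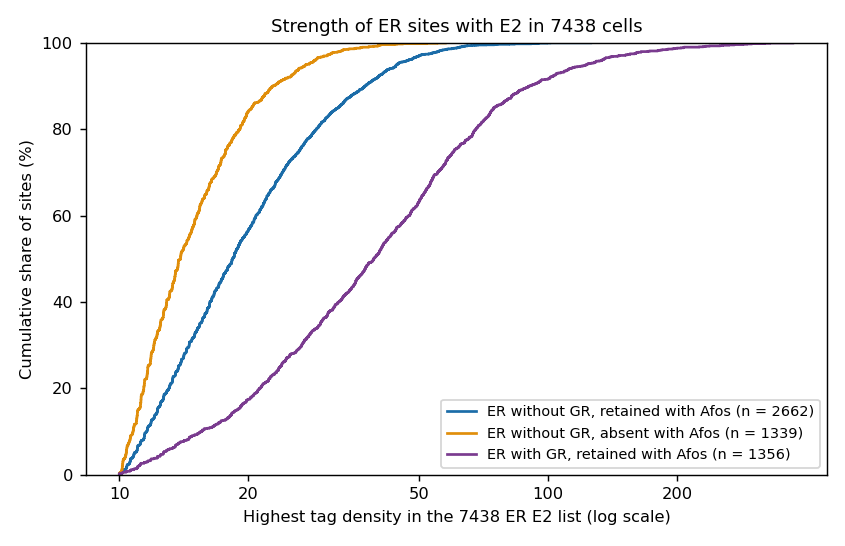
Cumulative share of sites, in percent, against the highest tag density of the 7438 ER E2 list, on a log axis. The curve of the 2662 members lies between that of the 1339 Afos-absent sites, to its left, and that of the 1356 sites with GR, to its right, with medians of 18.4, 13.9 and 39.2.

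The stronger an ER site without GR was in 7438 cells, the more often it was a member. All ER E2 sites were divided into 5 classes of nearly equal size by highest tag density. The share of stable sites without GR that was found in an Afos ER E2 list was 46.4% in the weakest class (10.0 to 12.0), 57.3% in the next, 65.2% in the middle class, 79.7% in the fourth and 92.6% in the strongest class (31.0 to 374). These classes held 346, 512, 631, 732 and 441 members.

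The 7438 ER list named Both held 11982 sites and the E2 list 7136, and percentiles from lists of unlike length show no change, so those of the members are a description. The median percentile was 63.1 in the list named Both and 54.9 in the E2 list, and 1731 of 2662 members, or 65.0%, had a higher percentile in Both. The median of Both minus E2 was 4.94 for members and 5.94 for all ER E2 sites found in Both. The percentile was higher in Both for 62.5% of Afos-absent sites, 80.3% of sites with GR and 69.7% of all 6299 ER E2 sites found in Both, so the members' share lay between those of the other classes. The median offset between centres in the lists named Both and E2 was 10 bp for members and for all ER E2 sites found in Both. It was 11 bp for Afos-absent sites and 8 bp for sites with GR. These sites were 150 bp wide and had to overlap, so the rule excluded offsets beyond that width.

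In Afos cells given both hormones, ER was called at a smaller part of the members than with E2, and the replicates differed more. The rule chose the members by the Afos ER E2 lists and not by these lists. A lower and less even share here was thus favoured by the choice of members. The Afos ER Dex+E2 list of replicate 1 held 1585 members, or 59.5% (57.6 to 61.4%), and that of replicate 2 held 691, or 26.0% (24.3 to 27.7%), a mean of 42.7% ± 23.7 (SD, n = 2). The same lists held 43.9% and 25.3% of all ER E2 sites. The share of Afos-absent sites was 5.83% in replicate 1 and 1.42% in replicate 2, and that of sites with GR was 88.3% in replicate 1 and 72.1% in replicate 2. Members thus stood above Afos-absent sites and below sites with GR in each replicate, and in replicate 2 they stood at the level of all ER E2 sites. The split between members and Afos-absent sites was itself made from Afos ER calls. The lists differed in length, with 5905 sites in replicate 1 and 2564 in replicate 2, and the part of list length in these shares was not tested.

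At least 1 of the 2 lists held 1603 members (60.2%, against 44.5% of all ER E2 sites), both held 673 (25.3%, against 24.8%), and neither held 1059 (39.8%, against 55.5%). All 4 Afos ER lists with E2 held 657 members (24.7%, against 22.4% of all ER E2 sites), a share near the background. Members in both Dex+E2 lists ranked higher with E2 in 7438 cells, with a median percentile of 67.0, than members in neither, with 48.8.

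Members found with and without Dex in the same Afos replicate mostly had a lower ER percentile in the Dex+E2 list, as did all ER E2 sites. In replicate 1 the median percentile of 1574 such members was 53.3 in the Dex+E2 list and 71.4 in the E2 list, and 22.5% had a higher percentile with Dex+E2, against 35.1% of all ER E2 sites, whose medians were 68.0 with Dex+E2 and 75.8 with E2. Replicate 2 gave 674 members with medians of 41.7 with Dex+E2 and 74.3 with E2, and 14.2% had a higher percentile with Dex+E2, against 24.6% of all ER E2 sites, whose medians were 61.1 with Dex+E2 and 79.3 with E2. Sites with GR had median percentiles of 85.1 with Dex+E2 and 82.6 with E2 in replicate 1, and 73.8 with Dex+E2 and 83.8 with E2 in replicate 2. The lists differed in length, with 5905 sites with Dex+E2 and 6046 with E2 in replicate 1, and 2564 with Dex+E2 and 4687 with E2 in replicate 2, so these percentiles do not show a change in binding.

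ER was almost never called at members without E2. In the 4 Afos ER lists without E2, which held between 35 and 61 sites, 2 members were found (0.0751%, against 0.238% of all ER E2 sites). In 7438 cells 9 members were among the 10149 ER sites of the Dex list (0.338%, against 1.26% of all ER E2 sites and 0.822% of Afos-absent sites). That list is doubtful as a measure of ER without its ligand, since the Afos ER Dex lists, from cells given the same hormone, held 61 and 41 sites. The 7438 ER list named unt held 5 members (0.188%, against 2.54% of all ER E2 sites and 1.34% of Afos-absent sites). Among the 7438 GR lists that the rule did not use, the E2 list held 3 members (0.113%, against 2.79% of all ER E2 sites) and the list named unt held 1 (0.0376%, against 1.14%). All these shares of members were below those of all ER E2 sites, and single lists allow no test.

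By the rule the members overlapped no GR site of the 7438 lists named Dex and Both. In Afos cells given both hormones GR was called at part of them, a smaller share than of all ER E2 sites in each replicate. The rule favoured a smaller share. The Afos GR Dex+E2 list of replicate 1 held 886 members, or 33.3% (31.5 to 35.1%; 38% of all ER E2 sites). Replicate 2 held 335, or 12.6% (11.3 to 13.9%; 28.1% of all ER E2 sites). The mean was 22.9% ± 14.6 (SD, n = 2), so the replicates differed widely. Replicate 1 held 14160 sites and replicate 2 held 10309, and the part of list length in this difference was not tested. The share of Afos-absent sites was 6.27% in replicate 1 and 4.11% in replicate 2, and that of sites with GR was 87.2% in replicate 1 and 73.8% in replicate 2.

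With E2 alone, GR was called at 158 members in replicate 1, or 5.94% (6.4% of all ER E2 sites), and at 19 in replicate 2, or 0.714% (1.72% of all ER E2 sites). All 19 were also among the 158. Over all ER E2 sites, 120 of the 123 in replicate 2 were also in replicate 1. No Afos-absent site was in either list, which allows a share of up to 0.224% in each. These GR lists were short, and members took up 30.0% of the 490 sites of replicate 1 and 11.6% of the 146 sites of replicate 2. Of the 158 members, 140 also carried GR in a Dex+E2 list, as did 437 of the 457 ER E2 sites in replicate 1.

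Dexamethasone alone gave GR at few members. Replicate 1 held 49, or 1.84% (11.3% of all ER E2 sites), and replicate 2 held 26, or 0.977% (7.2% of all ER E2 sites), although these lists had 8873 and 5136 sites. Afos-absent sites had 2.32% in replicate 1 and 1.12% in replicate 2, close to the members. Untreated cells had GR at 2 members in replicate 1 (0.0751%, against 0.589% of all ER E2 sites) and at 5 in replicate 2 (0.188%, against 1.49%). Among the Afos GR lists, those with Dex+E2 held the most members, and also the most of all ER E2 sites. How large the part of the rule was in the members' shares was not tested.

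**Figure D2:**
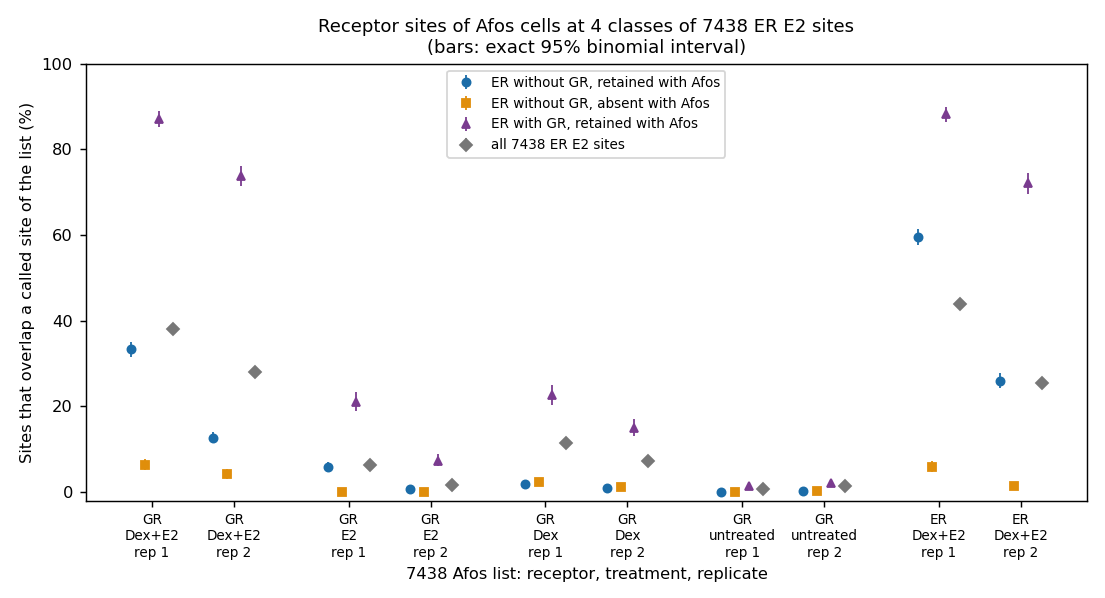
Share of sites, in percent, that overlapped a called site of each Afos GR list and of the Afos ER Dex+E2 lists, for members, Afos-absent sites, sites with GR and all 7438 ER E2 sites; bars are exact binomial 95% intervals. Members reach 33.3% and 12.6% in the GR Dex+E2 lists of replicates 1 and 2 and stay at or below 5.94% in the other GR lists.

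Over the 8 Afos GR lists, neither ligand passed the test. GR was at 12.2% ± 15.0 of members in the 4 lists with Dex, against 1.73% ± 2.82 in the 4 lists without Dex, a difference of 10.4 percentage points (two-sided exact permutation test over lists, p = 0.171, adjusted p = 0.171 over 3 tests). It was at 13.1% ± 14.3 in the 4 lists with E2, against 0.770% ± 0.819 in the 4 lists without E2, a difference of 12.4 points (exact permutation p = 0.0857, adjusted p = 0.164). The groups overlapped in both contrasts, and the smallest p possible was 0.0286. Each group pooled lists with and without the other hormone, so its SD includes differences between treatments. The lists without E2 include the Dex lists, where the rule favoured a low share. Over all ER E2 sites the mean GR share was 33.0% with Dex+E2, 4.06% with E2, 9.27% with Dex and 1.04% in untreated cells. Members had 22.9% with Dex+E2, 3.32% with E2, 1.41% with Dex and 0.131% in untreated cells. The highest share with Dex+E2 was thus not particular to members. Among the 2454 members with no site of any 7438 GR list within 1000 bp, GR was at 12.0% in the lists with E2, against 0.102% in those without E2, a difference of 11.9 points (exact permutation p = 0.0286, the smallest possible). This distance was chosen after the data were seen. The difference was no larger than over all members and the mean without E2 was lower, so the smaller p is no independent support for the contrast.

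The members were set against the Afos-absent sites, which also overlapped no GR site of the 7438 lists named Dex and Both. By the rule these classes differ only in whether an Afos ER E2 list called a site there. This split by Afos calls may by itself favour members in other Afos lists, and the test cannot separate that. Members minus Afos-absent sites was 27.0 and 8.48 percentage points in replicates 1 and 2 with Dex+E2, 5.94 and 0.714 with E2, -0.474 and -0.144 with Dex, and 0.0751 and -0.0362 in untreated cells. Members exceeded Afos-absent sites in all 4 lists with E2 and in 1 of the 4 lists without E2. Over the 8 lists members averaged 6.95% and Afos-absent sites 1.76%, a mean difference of 5.19 points (SD of the differences 9.42; two-sided exact sign-flip permutation test, p = 0.109, adjusted p = 0.164). Without Afos ER E2 replicate 1 in the choice of members, the difference was 5.94 points and passed the threshold (exact permutation p = 0.00781, the smallest possible). The comparison class then also held the 447 sites found in replicate 1 alone. That p requires only the same sign in all 8 lists, including the untreated lists, where differences were small. Without Afos ER E2 replicate 2 the difference was 5.26 points (exact permutation p = 0.188), with members required in both lists it was 6.34 points (p = 0.125, exact permutation), and with a reciprocal overlap of 50% it was 4.72 points (p = 0.203, exact permutation), so none of these passed. Leaving out replicate 2 likewise put the 100 sites found there alone into the comparison class. Averaged within the 5 classes of site strength used above the difference was 5.65 points (exact permutation p = 0.0156).

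In the Dex+E2 lists members exceeded Afos-absent sites in each of the 5 classes of strength. GR in replicate 1 was at 29.8% of members and 8.77% of Afos-absent sites in the weakest class, at 31.1% and 5.64% in the middle class, and at 43.5% and 0% (of 35 sites) in the strongest. GR in replicate 2 was at 11.0% of members and 4.26% of Afos-absent sites in the weakest class and at 19.3% and 0% in the strongest. ER in the Dex+E2 lists was at 72.8% of members of the strongest class in replicate 1 and 44.7% in replicate 2, against 53.8% and 16.2% of members of the weakest class. GR with E2 alone was at 14.1% of members of the strongest class and 1.16% of the weakest in replicate 1.

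**Figure D3:**
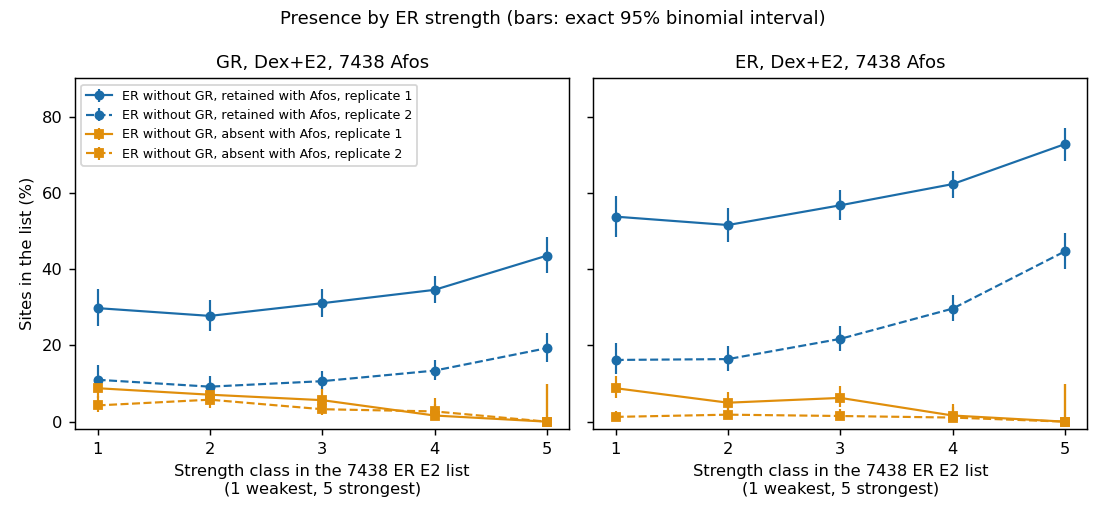
Share of members and Afos-absent sites, in percent, in the Afos Dex+E2 lists of GR (left) and ER (right), by class of strength in the 7438 ER E2 list; bars are exact binomial 95% intervals. The members' points lie above those of the Afos-absent sites in all 5 classes, with 43.5% and 0% for GR in replicate 1 in the strongest class.

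At least 1 Afos GR Dex+E2 list held 902 members (33.9%, against 40.3% of all ER E2 sites) and both held 319 (12.0%, against 25.7%). Both held 72.4% of sites with GR and 3.14% of Afos-absent sites. Of the 319, 274 were in no Afos GR Dex list, and all 49 members with GR in a Dex list were also in a Dex+E2 list. Over all ER E2 sites, 1103 of the 1836 in both Dex+E2 lists were in no Dex list. Of the 812 ER E2 sites with GR in a Dex list, 793 were also in a Dex+E2 list. Any of the 8 GR lists held 921 members (34.6%, against 40.9% of all ER E2 sites), and the other 1741, or 65.4%, had no called GR in any Afos list. No GR was called at 92.5% of Afos-absent sites and 11.2% of sites with GR.

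Where GR was called at a member in Dex+E2, it was mostly below the median of that list. The median percentile of GR at members was 40.6 in replicate 1 and 28.5 in replicate 2, against 77.4 and 64.5 at sites with GR in the same lists. It was 45.3 and 49.3 at Afos-absent sites, and 61.4 and 58.3 at all ER E2 sites. Members were chosen to lack 7438 GR, and the part of that choice in these ranks was not tested. The few members with GR in the Dex lists had median percentiles there of 72.9 in replicate 1 and 82.5 in replicate 2. Members with GR at or above percentile 90 of a Dex+E2 list numbered 31, and 30 of them lay within 500 bp of a 7438 GR site of the lists named Dex or Both. Of the 31, 21 were also in an Afos GR Dex list.

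A 7438 GR site close by, though not overlapping, was uncommon. The median distance from a member to the nearest GR site of these 2 lists was 23782.5 bp, against 16190 bp for Afos-absent sites. Within 500 bp lay 126 members, and 70.6% of these carried GR in replicate 1 of Afos Dex+E2 and 63.5% in replicate 2. Among the other 2536 members the share was 31.4% in replicate 1 and 10.1% in replicate 2. The share over all members was 33.3% in replicate 1 and 12.6% in replicate 2, so leaving out the members near a 7438 GR site lowered it by little.

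ER was called more often at members with GR than at members without GR in Afos cells given both hormones, as it was over all ER E2 sites. In replicate 1, ER was at 860 of the 886 members with GR, or 97.1% (95.7 to 98.1%), and at 725 of the 1776 without GR, or 40.8% (38.5 to 43.1%). In replicate 2, ER was at 252 of 335 members with GR, or 75.2% (70.2 to 79.8%), and at 439 of 2327 without GR, or 18.9% (17.3 to 20.5%). Over all ER E2 sites the shares were 83.5% with GR and 19.8% without GR in replicate 1, and 60.1% with GR and 11.8% without GR in replicate 2. Afos-absent sites had 60.7% with GR and 2.15% without GR in replicate 1. Both replicates had the same direction, and no exact permutation test over 2 replicates can pass the threshold. Pairing GR of one replicate with ER of the other gave 59.6% with GR and 9.18% without GR for GR of replicate 1, and 94.0% with GR and 54.6% without GR for GR of replicate 2. The same order was seen at sites with GR in replicate 1, with ER at 94.8% of those with GR called and 44.3% of those without.

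This held in each class of strength. In replicate 1 ER was at 93.7 to 98.4% of members with GR and at 35.0 to 53.4% of members without GR over the 5 classes. In replicate 2 it was at 68.4 to 81.6% with GR and at 9.74 to 36.5% without GR. Members with GR had a somewhat higher median percentile in the 7438 ER E2 list, 60.2 against 52.5 without GR in replicate 1, which the classes take into account only coarsely.

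**Figure D4:**
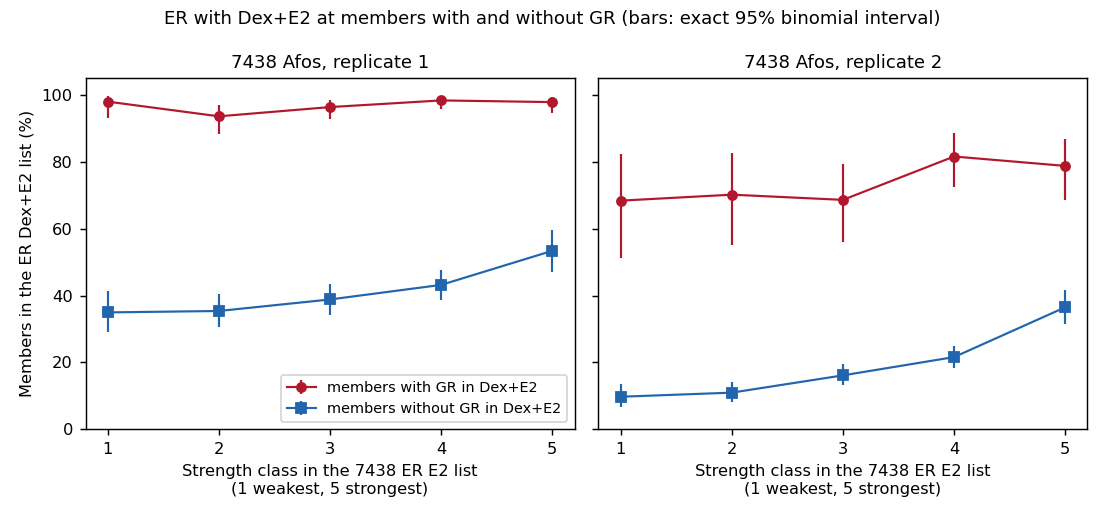
Share of members, in percent, with ER in the Afos Dex+E2 list, by class of strength in the 7438 ER E2 list, for members with and without GR in the same replicate; bars are exact binomial 95% intervals. Members with GR lie at 93.7 to 98.4% in replicate 1 and 68.4 to 81.6% in replicate 2, above members without GR in each class.

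The members divided by GR in Afos cells also differed in ER percentile in the 7438 lists. Members with GR in replicate 1 of Afos Dex+E2 had a median percentile of 74.3 in the 7438 ER list named Both and 60.2 in the E2 list, and 82.5% ranked higher in Both. Those without GR had medians of 56.5 in Both and 52.5 in E2, and 56.3% ranked higher in Both. With replicate 2 the shares ranking higher in Both were 83.3% of members with GR and 62.4% of those without. In the strongest class 61.5% of members with GR in replicate 1 ranked higher in Both, against 32.1% of those without, and in the weakest class 97.1%, against 89.7%. The median shift was larger with GR in all 5 classes with either replicate.

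The Afos ER lists gave a like order. Among members in both the Dex+E2 and the E2 list of replicate 1, the ER percentile with Dex+E2 minus that with E2 had a median of -6.95 where GR was called and -21.6 where it was not. In replicate 2 these medians were -15.5 with GR and -27.9 without GR. All ER E2 sites had medians of -1.08 with GR and -21.3 without GR in replicate 1, and -4.80 with GR and -27.5 without GR in replicate 2, so members without GR were close to all ER E2 sites without GR, of which they are a part. Only 134 members were in all 4 Afos ER lists with E2 and in no GR list of either cell line, or 5.03%, against 2.27% of all ER E2 sites.

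The 10 strongest members, by mean percentile over the 7438 and Afos ER lists that the rule used, are named here because they carry the largest signal. Coordinates are in mouse build mm9, as the lists give them. All 10 were in all 4 Afos ER lists with E2, and 9 were in a GR Dex+E2 list, 5 of them in both. The strongest was chr2:152739985-152740135, with a highest ER tag density of 156 in the 7438 list named Both and 127 in the E2 list. In Afos cells it had 70.4 and 20.3 in replicates 1 and 2 for ER with Dex+E2, against 146 and 85.7 with E2. GR there had 28.1 and 21.1 in replicates 1 and 2 with Dex+E2 and 22.1 and 10.4 with E2, and it was in no GR list with Dex or of untreated cells. Of the 10 it alone had GR in both Afos E2 lists.

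The next in rank was chr11:5442274-5442424, with ER at 183 in the 7438 list named Both and 95.1 in the E2 list. In Afos cells ER there had 97.2 and 49.6 in replicates 1 and 2 with Dex+E2, against 94.6 and 85.6 with E2, and GR had 13.1 and 10.7 with Dex+E2. Its ER values were the highest of the 10 in both Dex+E2 lists, while its GR values were below the median of their lists. At chr13:3477252-3477402 ER had 141 in the 7438 list named Both and 94.7 in the E2 list, and GR had 18.2 and 11.5 in replicates 1 and 2 of Afos Dex+E2. These 3 members were also the strongest with GR in both Dex+E2 lists, and their nearest 7438 GR sites lay 9779, 141172 and 216909 bp away.

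Members differed in how GR and ER went together. At chr11:74644014-74644164 no GR was called in any list, while ER had 52.3 and 23.5 in replicates 1 and 2 of Afos Dex+E2, against 119.8 and 83.2 with E2. At chr7:138079347-138079497 GR was strong, with 82.3 and 67.0 in replicates 1 and 2 of Afos Dex+E2 and 73.2 and 46.3 with Dex, and a 7438 GR site lay 163 bp away. At chr2:128150281-128150431 ER had 26.3 and 8.22 in replicates 1 and 2 of Afos Dex+E2, against 87.3 and 63.5 with E2, percentiles of 80.8 and 21.7 against 97.2 and 96.7. That was the lowest ER percentile of the 10 in both Dex+E2 lists.

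The other 4 were chr2:167586292-167586442, chr6:108520958-108521108, chr16:34574185-34574335 and chr11:70097227-70097377. GR in replicate 1 of Afos Dex+E2 was between 9.59 and 39.3 at these 4, and chr6:108520958-108521108, the highest of them, also had GR at 20.4 in replicate 2. The 3 weakest members, chr7:116663691-116663841, chr8:114585509-114585659 and chr10:7815222-7815372, had ER tag densities of 10.8, 10.2 and 10.0 in the 7438 E2 list. Each of the 3 was in a single Afos ER E2 list, with values between 6.67 and 8.23, and none carried GR in any list. They stood at the lower limit of 10.0 of the 7438 lists.

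**Figure D5:**
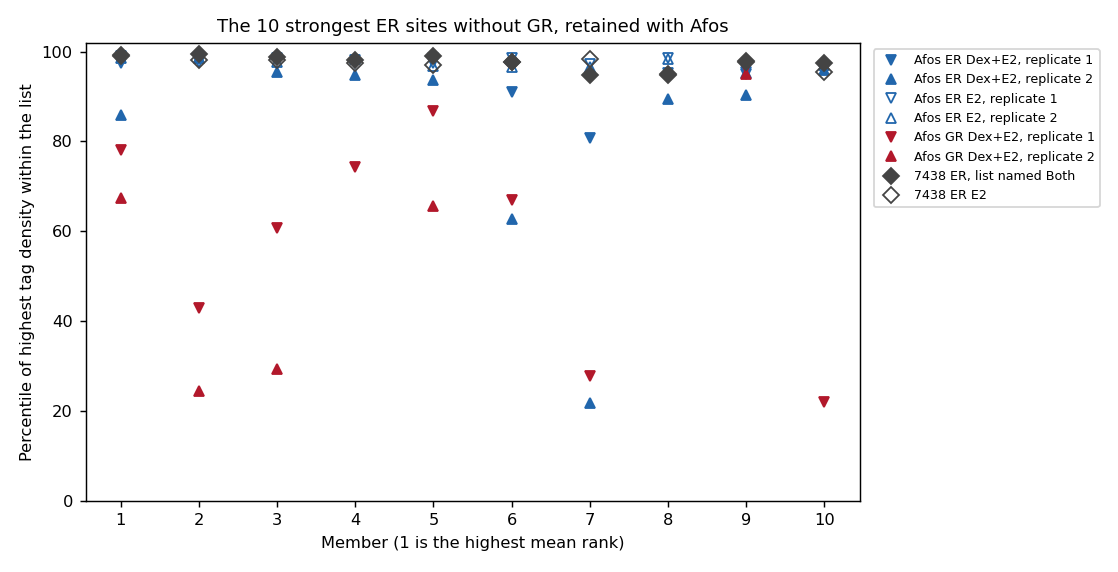
Percentile of the highest tag density within each list (1 symbol a list) for the 10 strongest members, in order of mean rank. ER with E2 and in the 7438 lists stays at or above percentile 94.8, while ER with Dex+E2 in Afos replicate 2 goes down to 21.7 and GR with Dex+E2 runs from 22.0 to 96.4.

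Members lay on all chromosomes given in the ER E2 list. Their share of the ER E2 sites of a chromosome ran from 29.9% on chromosome 12 (121 of 405 sites; 25.5 to 34.6%) to 63.9% on X (23 of 36 sites; 46.2 to 79.2%). On X only 2 stable ER sites without GR were Afos-absent, so 92.0% were members (74.0 to 99.0%), against 58.5 to 72.8% on the other chromosomes. GR in replicate 1 of Afos Dex+E2 was at 56.5% of the X members, against 27.1 to 37.8% on the other chromosomes. X held few ER sites, and these values were picked out after all 20 chromosomes were seen. Chromosome 11 had the most members, 260 of its 680 ER E2 sites, or 38.2%.

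Most members lay alone. Another ER E2 site lay within 10000 bp of 36.4% of members, against 38.8% of Afos-absent sites, 49.9% of sites with GR and 41.1% of all ER E2 sites. Another member lay that near to 19.0% of members. Linking members at this distance gave 2156 single sites, 194 groups of 2, 28 of 3 and 6 of at least 4. The largest group had 12 members at chr7:71218352-71235619, a stretch of 17267 bp. Their ER tag densities in the 7438 E2 list ran from 12.5 to 28.2. Of the 12, 8 carried ER and 8 carried GR in replicate 1 of Afos Dex+E2, 6 carried ER and 3 carried GR in replicate 2, and 3 carried GR in replicate 1 with E2. None was in an Afos GR list with Dex or of untreated cells.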

How the data were processed

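GR and ER ChIP-seq was done on sonicated nuclei of 7438 and 7438 Afos cells, per the labels' protocols. Of 39 samples, 24 lists of called sites were used and 15 samples were not analysed here. Per the submitters' processing notes, the build was mm9 and CASAVA 1.8 was used. Which aligner, site caller and threshold were applied is not given in the sources used here. Per the file headers, each deposited site carries the highest and average tag density, a signal of the authors whose scaling is not stated, and a z-score, the authors' score for the site, which was used only to describe the lists. A p-value that the authors deposited for Afos sites entered no result. Ranks of tag density were taken within each list alone.

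The 2 cell lines' lists were made differently: 7438 sites were 150 bp wide with a density of at least 10.0, while the narrowest Afos site had 251 bp and list medians ran from 335 to 602 bp. Lists held 35 to 14160 sites, read depth is unknown, and the number of lists limits the precision.

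Sites were matched by an overlap of at least 1 bp on the same chromosome. Shares carry exact (Clopper-Pearson) 95% binomial intervals, and a count of 0 was given the limit of 3 counts. Shares were compared over lists by exact permutation, with Benjamini-Hochberg adjustment over 3 tests; the overlap and permutation code was tested on simulated data. The sites named are the 10 of highest and the 3 of lowest mean percentile in the 7438 ER E2, 7438 ER Both and Afos ER E2 lists, and the 3 strongest with GR in both Afos GR Dex+E2 lists. Other sites and chromosomes that are singled out were chosen after their values were seen, as were the comparisons by GR within replicates. The members and the comparisons were chosen with earlier results of these data known.

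Alternatives were a 50% reciprocal overlap, denser sites only, retention in both or in 1 named Afos ER E2 list, treatment by sample label, leaving out replicates and a replicate block. Added after the data were seen were the removal of sites within 1000 bp of a 7438 GR site and averaging over 5 strength classes. Sequences, motifs and nearby genes were not analysed here, because the genome in mm9 was not used here. Python 3.11.15, NumPy 2.4.6, SciPy 1.17.1 and pandas 2.3.3 were used, with matplotlib 3.10.9 for plots.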

Additional observations from a re-analysis of the deposited data

Results flagged for a closer look

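GR with E2 in Afos replicate 1 was at 5.94% of members, far from the other 3 Afos GR lists without Dex. Its gap to the next list was 0.891 of the range of the 4 lists, above the critical value of Dixon's test. For lists of a single kind chance passes that value in about 1 group in 20. These 4 lists mix E2-treated and untreated cells, and other overlapping groups were screened too, so that rate does not hold here. The other E2 replicate was at 0.714%.

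The share of members with GR minus that of Afos-absent sites differed between treatments. It was 17.7 percentage points with Dex+E2 and -0.309 with Dex, a difference of 18.1 points, with both Dex+E2 lists positive and both Dex lists negative. It was 3.32 points with E2 and -0.309 with Dex, a difference of 3.63 points, with the same split of the lists. Neither difference was tested.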

How the results depend on the processing

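Reading 7438 treatment by the sample labels left 9 members, a retained share (members among stable ER sites without GR) of 25.7%, a mean ER Dex+E2 share of 66.7% and a 7438 ER Dex share of 11.1%. Afos sites at or above their list's median density left 1747 members, a retained share of 43.7% and a GR difference between members and Afos-absent sites of 2.33 points (exact permutation p = 0.0156). ER E2 sites at or above the median density left 1492 members, a retained share of 79.6% and a difference of 7.54 points (exact permutation p = 0.00781). Retention in both Afos ER E2 lists gave 61.2%, but there the sites found in a single list were left out of the share altogether. Leaving out an Afos ER E2 replicate gave 55.4 to 64.0%. Without Afos ER E2 replicate 1 the GR difference was 5.94 points (exact permutation p = 0.00781, the smallest possible), with sites found in that replicate alone in the comparison class. Over all replicates left out the GR difference ran from 2.25 to 8.14. Within 5 strength classes it was 5.65 points (p = 0.0156, exact permutation), and with no 7438 GR site within 1000 bp the contrast with E2 was 11.9 points (exact permutation p = 0.0286), no larger than over all members; both were chosen after the data were seen. Leaving out replicates gave 6.33 to 14.6 points for the contrast with Dex, 6.07 to 18.7 for that with E2, and 26.0 to 59.5% for the ER Dex+E2 share. At 50% reciprocal overlap the 7438 ER Dex share was 0.0372%. No result changed direction, and 51 of the recomputed values stayed within the spread or on their side of the threshold. In every setting members and Afos-absent sites were split by Afos ER calls, which may by itself favour members in other Afos lists. The causes were not tested.

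Replicate numbers did not establish pairing: the correlations computed to check it, over 7136 ER E2 sites, ran from -0.125 to 0.110 over 6 pairs of GR treatments, with 1 above 0.1. They are not correlations of the lists themselves, since nearly all ER E2 sites with GR in an Afos Dex list were also in a Dex+E2 list. With the replicate block the contrasts kept their sizes of 10.4 points for Dex (exact permutation p = 0.222) and 12.4 points for E2 (p = 0.111, exact permutation), with 0.0556 as the smallest p possible. Motif shares were not run. Site calls without depth limit all shares, since a site under a caller's threshold is counted as absent, and 1 list a treatment in 7438 gives no spread.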
